A study of Mus musculus with 6 samples.

Results

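The 46 mouse genes described here encode Polycomb proteins and other regulators of chromatin. They were taken from a list of symbols, and array probes were assigned to them through RefSeq accessions. All 46 genes had at least 1 probe (68 probes in all), and 45 of them were among the 14590 genes that could be tested. The missing gene, Cbx7, was well above background on a single array, that of mOct4 clone 2. For 43 of the 46 genes a probe was well above background on all 6 arrays.

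The RNA came from stable lines of ZHBTc4, a mouse embryonic stem cell line whose resident Oct4 transgene is turned off by tetracycline. Each line carried a pCAG-IP-POUV plasmid that supplied the rescuing protein and resistance to puromycin. Mouse OCT4 was supplied in mOct4 clones 1 and 2, coelacanth POU5F1 in LcPOU5F1 clones 4 and 5, and coelacanth POU5F3 in LcPOU5F3 clones 1 and 2. The protocol describes selection with and without tetracycline at 2 µg/mL, and the source names of all 6 samples say with tetracycline; from day 2 the medium held 1 µg/mL puromycin, and colonies were picked on day 9 and grown on gelatin in serum with LIF. The mOct4 clones are thus rescued cells too, with transgenic mouse OCT4 in place of the resident transgene, and every line is 1 picked colony, so the 2 clones of a group give the only measure of spread. The labels state that the RNA had an integrity number of 10.

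Polycomb proteins keep developmental genes silent in embryonic stem cells. Polycomb repressive complex 2 (PRC2) methylates histone H3 at lysine 27, and Polycomb repressive complex 1 (PRC1) ubiquitinates histone H2A and compacts chromatin; the make-up of PRC1 depends on which PCGF subunit joins the RING ligase. The remaining genes encode histone demethylases, methyltransferases and their cofactors, and subunits of the BAF, NuRD and TIP60 complexes, several of which are known to be needed for self-renewal or for exit from it.

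The cell state of the clones was checked first. The probe for Pou5f1, the gene replaced, was well above background in both mOct4 clones. It was at -1.75 and -1.47 there, in log2 relative to each array's 75th percentile. In the 4 coelacanth-rescued clones it was not distinguishable from background. All 8 embryonic stem cell markers examined were well above background on all 6 arrays, but their summed signal, in multiples of each array's 75th percentile, was 407 and 435 in the mOct4 clones, 356 and 436 in the LcPOU5F1 clones, and 119 and 63.1 in the LcPOU5F3 clones. The summed signal of 10 trophectoderm markers was 35.4 and 36.1, 32.5 and 23.6, and 524 and 549 in the same order. In LcPOU5F3 clones the brightest of the 10 were Krt18 (log2 8.56 and 8.60) and Krt8 (6.42 and 6.71). They therefore weigh most in the sums there. Of the 9 trophectoderm markers tested, 6 rose in LcPOU5F3 against mOct4 clones, with Krt8 higher by 5.82 and Krt18 by 5.45 on the log2 scale, and Eomes fell by 2.02. Tfap2c was close in all 3 groups (3.66 to 4.39), and Elf5, a defining trophoblast factor, was well above background on no array. The sums were at most 3.64 for 8 primitive endoderm markers and at most 5.31 for 8 fibroblast or feeder markers, and the highest sum of either list was on an LcPOU5F3 array. From these lists Dab2 (at least 20.1-fold), Dcn (at least 9.84-fold) and Thy1 (2.44-fold) rose in LcPOU5F3 against mOct4 clones and Amn and Pdgfrb fell. Pdgfra, Lum and Postn were above background on no array. Krt7, among the 6 trophectoderm markers that rose, Dab2 and Dcn entered the test through the LcPOU5F3 clones alone. No other group had both clones well above background for them. Pdgfrb entered it through the mOct4 clones alone. These genes had to differ, so they lend no support to a difference in cell state. The part that this difference in cell state plays in the values below was not tested. In these bulk samples, fewer cells of a type and less RNA per cell cannot be told apart.

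The 250 bases before the transcription starts of these genes were examined in RefSeq windows of the GRCm38.p6 assembly. There were 60 windows for 40 of the 46 genes. Their median content was 21 CG dinucleotides, against 6 over all 32851 windows. The most CG-rich windows of Pcgf5 and Cbx8, the called genes with the largest increases in LcPOU5F3 clones, and of Jarid2 and Mtf2, PRC2 partners that decreased there, are shown 5′ to 3′ with each CG in capitals. They hold 28, 22, 23 and 23 CG in this order, all above the median of all windows. Whether CG content bears on the changes was not tested.
Pcgf5, chr19:36409498-36409747, plus strand: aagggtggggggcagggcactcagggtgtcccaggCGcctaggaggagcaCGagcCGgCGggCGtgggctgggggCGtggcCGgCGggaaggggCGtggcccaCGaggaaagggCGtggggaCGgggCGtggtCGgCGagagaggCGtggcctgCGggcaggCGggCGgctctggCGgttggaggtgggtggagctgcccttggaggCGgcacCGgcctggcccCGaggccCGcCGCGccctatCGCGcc
Cbx8, chr11:119040914-119041163, minus strand: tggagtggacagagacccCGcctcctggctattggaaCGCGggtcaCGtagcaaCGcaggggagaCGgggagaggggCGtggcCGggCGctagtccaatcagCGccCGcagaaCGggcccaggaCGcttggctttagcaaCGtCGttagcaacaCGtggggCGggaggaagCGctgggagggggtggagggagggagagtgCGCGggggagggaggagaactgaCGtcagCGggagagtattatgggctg
Jarid2, chr13:44730524-44730773, plus strand: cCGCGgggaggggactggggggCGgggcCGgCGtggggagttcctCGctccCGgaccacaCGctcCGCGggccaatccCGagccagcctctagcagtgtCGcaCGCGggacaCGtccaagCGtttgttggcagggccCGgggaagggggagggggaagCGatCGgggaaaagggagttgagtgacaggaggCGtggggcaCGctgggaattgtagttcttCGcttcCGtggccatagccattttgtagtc
Mtf2, chr5:108065424-108065673, plus strand: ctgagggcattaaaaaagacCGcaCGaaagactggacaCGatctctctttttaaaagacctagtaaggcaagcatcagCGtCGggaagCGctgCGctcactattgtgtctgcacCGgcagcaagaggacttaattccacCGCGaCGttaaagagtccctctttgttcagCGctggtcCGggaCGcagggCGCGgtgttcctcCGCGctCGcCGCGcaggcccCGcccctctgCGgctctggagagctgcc

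The octamer bound by OCT4 and other POU factors (ATGCAAAT, searched on both strands) was present in 1 window of the 60, against 1.60% of all windows. That window is 1 of 3 for Phc2 and has a single CG. The octamer, which reads as its reverse complement here, is in capitals.
Phc2, chr4:128688488-128688737, plus strand: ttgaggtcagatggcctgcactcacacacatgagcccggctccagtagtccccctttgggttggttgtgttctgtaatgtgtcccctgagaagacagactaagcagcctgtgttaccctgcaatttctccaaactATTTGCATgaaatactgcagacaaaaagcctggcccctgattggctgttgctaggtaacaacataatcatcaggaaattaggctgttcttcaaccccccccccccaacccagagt
A motif of the type bound by E2F factors (TTTCCCGC, both strands, no overlap with the octamer) was present in 3 windows, those of Phf19, Suz12 and Arid1a, against 0.895% of all windows. These matches describe the sequence only.

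Values are log2 signals relative to the 75th percentile of each array, and each is a level of the probe used for that gene on that array. Differences are log2 differences between group means over n = 2 clones each, with the standard error (SE) of limma's moderated fit and a p-value adjusted by Benjamini-Hochberg over all 14590 genes. A gene was called when the adjusted p was under 0.05. The series asks how far each coelacanth protein can take the place of mouse OCT4, and the chromatin genes were therefore compared between all 3 pairs of groups; the comparisons share arrays, so they are not independent.

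In LcPOU5F3 clones, the levels of some chromatin regulators differed from those of mOct4 clones, in both directions. Of the 45 genes, 4 rose (Pcgf5, Phc2, Kdm6b and Cbx8, which entered the test through LcPOU5F3 clones alone) and 11 fell (Eed, Jarid2, Mtf2, Phf19, Pcgf2, Phc1, Kdm3a, Kdm5b, Trim28, Wdr5 and Dpy30). These 15 make up 33.3% of the set, where 23.5% of all genes tested were called in this comparison, 11.8% higher and 11.7% lower. Whether these shares differ was not tested, so the count alone does not set these genes apart. The median difference was -0.28 over the set and -0.09 over all genes. Both LcPOU5F3 clones lay below the other 4 arrays for 21 of the 45 genes, where 29.6% of all genes did so, and above them for 8 genes, where 20.5% did so. An unadjusted p under 0.05 was found for 21 of the 45 genes, and for 40.2% of all genes. The calls among PRC2 subunits were all falls, those among PRC1 subunits went both ways, and BAF, NuRD and TIP60 subunits held none. In this comparison the count was 0 without mOct4 clone 1 and 0 without mOct4 clone 2, when only 36 and 46 genes of all those tested were called; 15 of the 45 genes still had an unadjusted p under 0.05 in either fit. Leaving out mOct4 clone 2 is also the comparison within slide 1, since that clone was alone on slide 2. Without LcPOU5F1 clone 4 or clone 5, which enter only through the shared estimate of spread, 11 of the 15 kept their call and Dpy30, Kdm3a, Phc2 and Wdr5 lost it. Without LcPOU5F3 clone 1, 14 kept it and Phc1 lost it, and without LcPOU5F3 clone 2, 11 kept it and Dpy30, Phc1, Phc2 and Phf19 lost it.

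**Figure D1:**
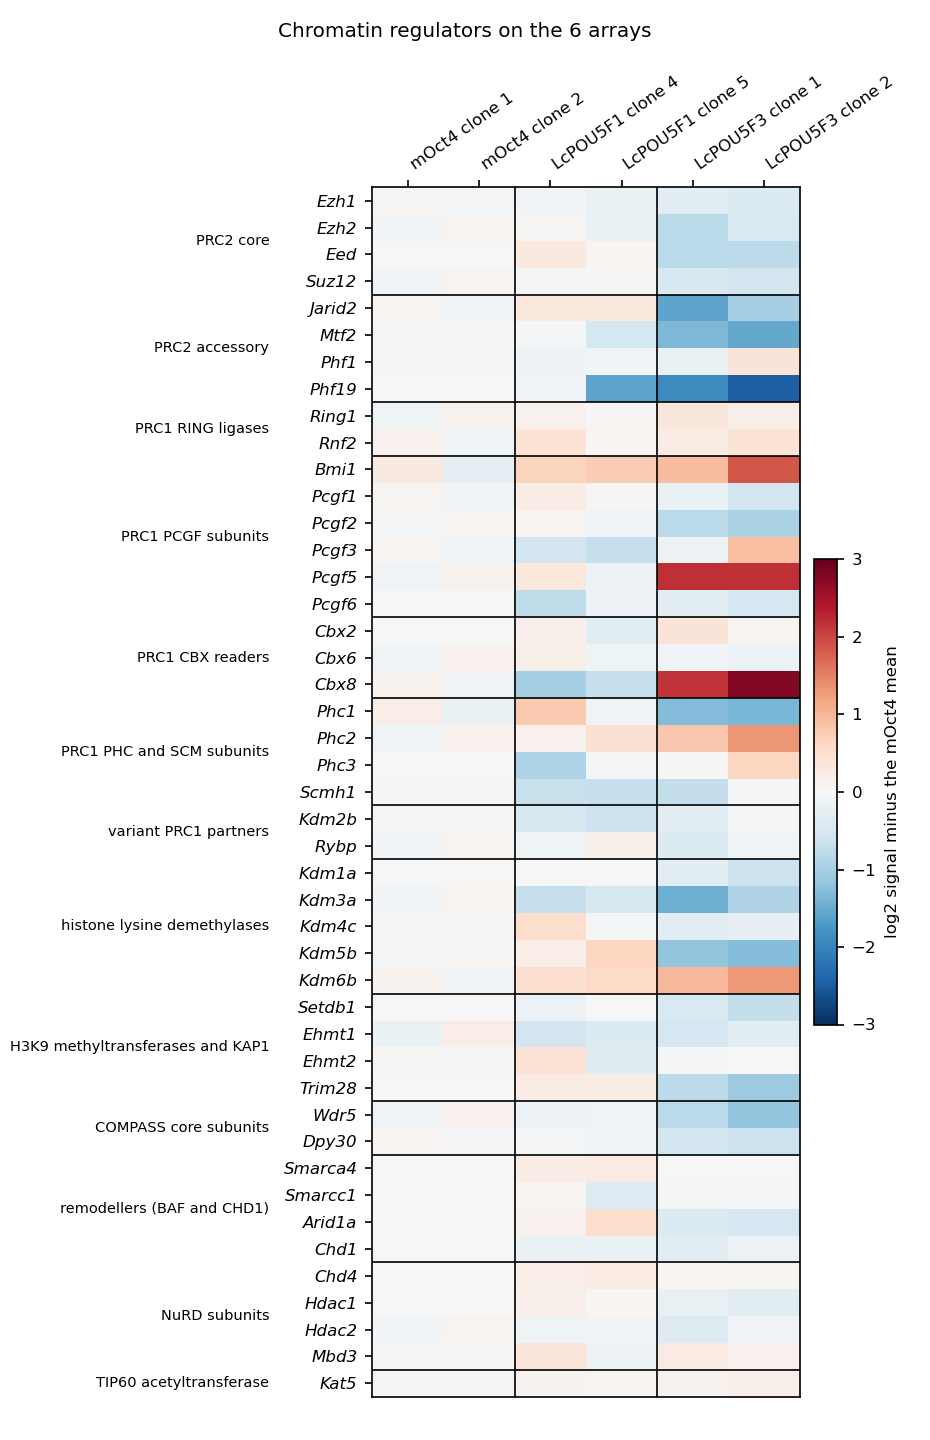
Heat map of the 45 tested chromatin regulators (rows, grouped by complex) on the 6 arrays (columns, 2 clones per group); colour gives the log2 signal minus the gene's mean over the mOct4 clones. The LcPOU5F3 columns hold the strongest colours, red for Pcgf5 and Cbx8 and blue for Jarid2, Mtf2, Phf19 and Phc1; Cbx8 was not well above background in the other 4 columns.

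The PRC2 subunits fell or showed differences below 0, with 1 exception. Of 8 tested, 4 fell in LcPOU5F3 clones and none rose (50% called, where 23.5% of all genes were). The median difference was -0.72. Eed encodes the subunit that binds methylated lysine 27 and stimulates the enzyme. Its level was 5.84 on both mOct4 arrays, 6.14 and 5.90 on the LcPOU5F1 arrays, and 5.03 and 5.06 on the LcPOU5F3 arrays. The LcPOU5F3 clones lay below all others, and the difference from mOct4 was -0.80 ± 0.15 (SE; 1.74-fold, adjusted p = 0.0241). Ezh2, the main methyltransferase of the complex, was at 3.66 and 3.82 in mOct4 clones, 3.76 and 3.54 in LcPOU5F1 clones, and 2.93 and 3.29 in LcPOU5F3 clones. Suz12, the scaffold subunit, was at 3.71 and 3.88, then 3.74 and 3.83, then 3.31 and 3.24. For both genes the LcPOU5F3 clones were the lowest of the 6, but their differences from mOct4 of -0.63 ± 0.19 and -0.52 ± 0.15 did not pass the test (adjusted p = 0.0703 and 0.0594). Ezh1, the alternative methyltransferase, differed by -0.38 ± 0.14 (adjusted p = 0.110).

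Of the 4 accessory subunits of PRC2, which steer the complex to its sites, 3 fell, with a median difference of -1.36. Of the 4 core subunits 1 fell, with a median of -0.58. The shares called were 75% and 25%, where 23.5% of all genes were called. Jarid2, a DNA-binding cofactor, was at 4.26 and 4.11 in mOct4 clones, 4.49 in both LcPOU5F1 clones, and 2.60 and 3.18 in LcPOU5F3 clones. The groups did not overlap, and the fall in LcPOU5F3 clones was 2.45-fold (-1.29 ± 0.23, adjusted p = 0.0205). Mtf2, a Polycomb-like protein that binds unmethylated CG-rich DNA, was at 4.84 and 4.79, then 4.79 and 4.29, then 3.48 and 3.29. Here too the LcPOU5F3 clones were well below the rest, by 2.70-fold against mOct4 (-1.43 ± 0.21, adjusted p = 0.0145).

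Phf19, another Polycomb-like protein, had the widest fall against mOct4 in the set but also the widest gap between clones. It was at 1.47 and 1.44 in mOct4 clones, 1.35 and -0.14 in LcPOU5F1 clones, and -0.47 and -0.99 in LcPOU5F3 clones. LcPOU5F1 clone 4 was near the mOct4 clones and clone 5 near the LcPOU5F3 clones. The fall in LcPOU5F3 clones was 4.53-fold (-2.18 ± 0.51, adjusted p = 0.0380). Phf1, the third Polycomb-like gene, differed by 0.10 ± 0.23 and was not called.

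Of 17 PRC1 subunits tested, 3 rose and 2 fell, which is 29.4% called where 23.5% of all genes were, and the median difference was 0.23 against -0.09 over all genes. The RING ligases that carry the catalytic activity were not called: Rnf2 was at 2.61 and 2.33 in mOct4 clones, 2.89 and 2.53 in LcPOU5F1 clones, and 2.70 and 2.88 in LcPOU5F3 clones. Ring1 was at -1.67 and -1.44, then -1.43 and -1.51, then -1.22 and -1.37. The groups lay close together, and the differences of LcPOU5F3 from mOct4 were 0.32 ± 0.20 for Rnf2 and 0.26 ± 0.16 for Ring1, with adjusted p of 0.296 and 0.284.

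Of the 6 PCGF subunits, of which a PRC1 complex holds 1, Pcgf5 rose, Pcgf2 fell and 4 were not called. The share called in LcPOU5F3 against mOct4 clones was 33.3%, where 23.5% of all genes were called. Pcgf5, which marks a variant PRC1 without CBX proteins, was at 2.03 and 2.24 in mOct4 clones, 2.46 and 1.96 in LcPOU5F1 clones, and 4.33 and 4.32 in LcPOU5F3 clones. The LcPOU5F3 clones were nearly identical and far above the other 4. The rise against mOct4 was 4.56-fold (2.19 ± 0.21, adjusted p = 0.00686), the smallest adjusted p of the 45 genes, and another Pcgf5 probe gave 2.11. Pcgf2 (MEL18), the PCGF subunit of canonical PRC1 in embryonic stem cells, was at 0.81 and 0.91, then 0.95 and 0.75, then 0.05 and -0.09. It fell 1.84-fold in LcPOU5F3 clones (-0.88 ± 0.15, adjusted p = 0.0203), with another probe at -1.02. Bmi1, its close relative, was at -0.02 and -0.58, then 0.37 and 0.45, then 0.62 and 1.57. The LcPOU5F3 clones were the highest but lay apart from each other, and the difference of 1.40 ± 0.37 fell just short of the threshold (adjusted p = 0.0503). Pcgf1, Pcgf3 and Pcgf6 were not called and differed by -0.37, 0.37 and -0.42.

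Among the CBX proteins, which read methylated lysine 27 for canonical PRC1, Cbx8 stood out. Its probe was at -3.70 and -3.90 in mOct4 clones and -4.78 and -4.48 in LcPOU5F1 clones, and was well above background on none of these 4 arrays. In LcPOU5F3 clones it was at -1.64 and -1.02 and well above background on both. The 4 dim values have no order, since they lie at or under what the arrays can tell from background. Cbx8 was at least 4.98-fold higher in LcPOU5F3 than in mOct4 clones (adjusted p = 0.00774), but it passed the filter through the LcPOU5F3 clones alone, so it had to differ and lends the counts no support; the bound compares its mean with a floor per mOct4 array, taken as the dimmest signal the scanner marked as well above background there, or the Cbx8 signal itself if brighter. Cbx2 and Cbx6 were not called and differed by 0.23 ± 0.22 and -0.13 ± 0.18.

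Of the PHC proteins, which polymerise and bring PRC1 complexes together, Phc1 fell and Phc2 rose. Phc1 was at 2.76 and 2.36 in mOct4 clones, 3.33 and 2.46 in LcPOU5F1 clones, and 1.26 and 1.20 in LcPOU5F3 clones. Its fall was 2.51-fold (-1.33 ± 0.33, adjusted p = 0.0427). Phc2 was at 2.96 and 3.20, then 3.21 and 3.53, then 3.88 and 4.41. Its level rose 2.10-fold in LcPOU5F3 clones (1.07 ± 0.24, adjusted p = 0.0363), with the LcPOU5F1 clones between the other groups. Phc3 and Scmh1, a further subunit of canonical PRC1, were not called (0.34 ± 0.36 and -0.39 ± 0.24), nor were the variant PRC1 partners Kdm2b (-0.18 ± 0.17), which binds unmethylated CG-rich DNA, and Rybp (-0.27 ± 0.19).

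**Figure D2:**
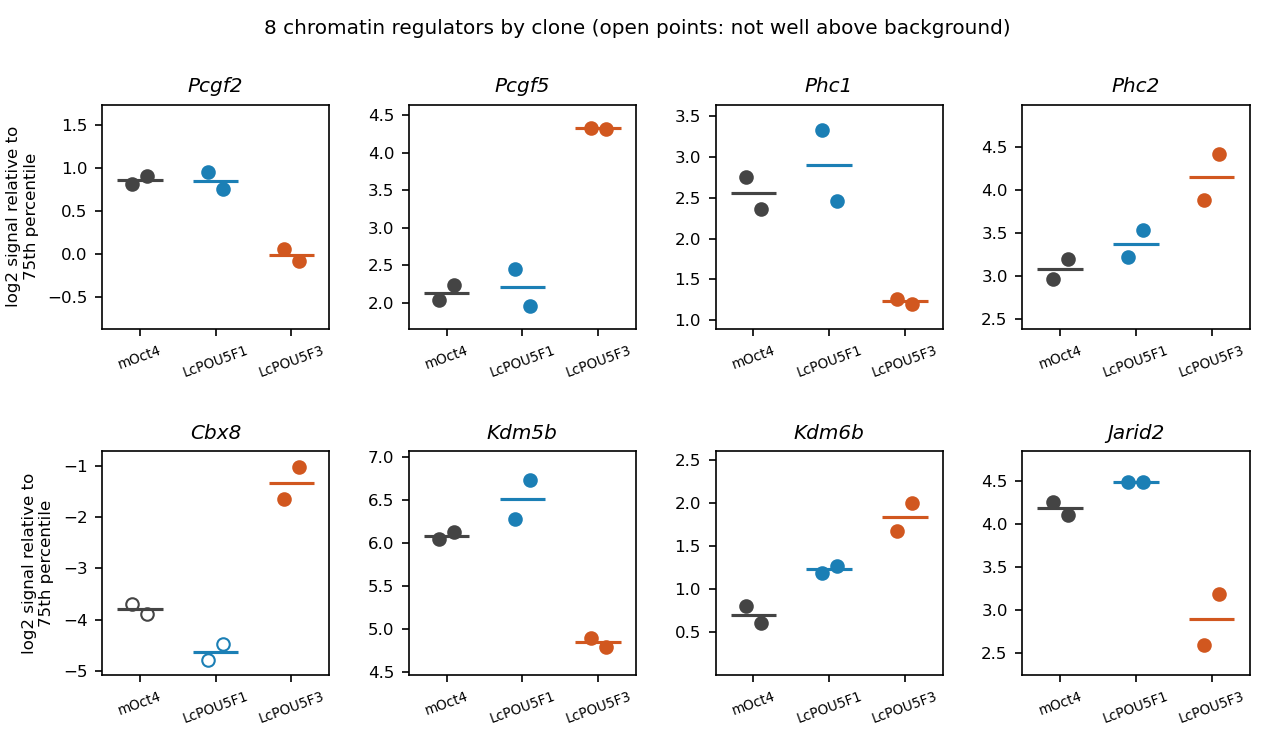
Log2 signal relative to each array's 75th percentile (vertical axes, scaled per gene) for 8 chromatin regulators in each clone (points) with the group mean (bars), n = 2 clones per group; open points were not well above background. Pcgf5 at 4.33 and 4.32 and Cbx8 at -1.64 and -1.02 are highest in LcPOU5F3 clones, while Pcgf2, Phc1, Kdm5b and Jarid2 are lowest there.

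Of 5 histone lysine demethylases tested, 2 fell in LcPOU5F3 clones and 1 rose (60% called, where 23.5% of all genes were). Kdm5b, which removes methyl groups from H3 lysine 4, was at 6.05 and 6.13 in mOct4 clones, 6.29 and 6.74 in LcPOU5F1 clones, and 4.90 and 4.80 in LcPOU5F3 clones. The LcPOU5F3 clones were clearly below, by 2.37-fold against mOct4 (-1.24 ± 0.20, adjusted p = 0.0165), and another probe gave -1.15. Kdm3a, a demethylase of H3 lysine 9, was at 3.80 and 3.97, then 3.18 and 3.39, then 2.42 and 2.98. The LcPOU5F1 clones lay between the other groups, and the fall in LcPOU5F3 clones was 2.27-fold (-1.18 ± 0.23, adjusted p = 0.0257).

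Kdm6b, which erases the lysine 27 mark laid down by PRC2, was at 0.80 and 0.61 in mOct4 clones, 1.19 and 1.27 in LcPOU5F1 clones, and 1.67 and 2.00 in LcPOU5F3 clones. The groups formed 3 steps without overlap, and the rise in LcPOU5F3 clones was 2.19-fold (1.13 ± 0.18, adjusted p = 0.0162). Kdm1a (LSD1), a demethylase of H3 lysine 4, was at 4.75 and 4.71, then 4.74 and 4.71, then 4.39 and 4.09. Its difference of -0.49 ± 0.16 did not pass (adjusted p = 0.0859). Kdm4c differed by -0.29 ± 0.23 and was not called.

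Of the H3 lysine 9 methyltransferases and their cofactor, Trim28 (KAP1), the corepressor through which zinc finger proteins silence retroelements, fell. It was at 6.68 and 6.69 in mOct4 clones, 6.91 and 6.90 in LcPOU5F1 clones, and 5.90 and 5.60 in LcPOU5F3 clones. The fall in LcPOU5F3 clones was 1.91-fold (-0.94 ± 0.16, adjusted p = 0.0197). Setdb1, the methyltransferase that Trim28 recruits, differed by -0.60 ± 0.16 (adjusted p = 0.0562). Ehmt1 and Ehmt2, which form the G9a/GLP enzyme, differed by -0.41 ± 0.20 and -0.02 ± 0.28.

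Both genes of the set that encode core subunits of the H3 lysine 4 methyltransferase complexes (COMPASS) fell, where 11.7% of all genes were called lower. Wdr5 was at 4.63 and 4.88 in mOct4 clones, 4.58 and 4.65 in LcPOU5F1 clones, and 3.94 and 3.58 in LcPOU5F3 clones. In LcPOU5F3 clones it fell by 1.00 on the log2 scale (SE 0.19, 2.00-fold, adjusted p = 0.0246). Dpy30 was at 2.92 and 2.82, then 2.82 and 2.79, then 2.33 and 2.23. Its fall was the smallest of those called, at 1.51-fold (-0.59 ± 0.14, adjusted p = 0.0390), and another probe gave -0.71.

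None of the 9 genes of the BAF, NuRD and TIP60 complexes and the remodeller Chd1 was called for LcPOU5F3 against mOct4. Of all genes, 23.5% were called in that comparison. Smarca4 (BRG1), the ATPase of BAF, was at 5.72 on both mOct4 arrays, 5.94 and 5.97 on the LcPOU5F1 arrays, and 5.71 on both LcPOU5F3 arrays, a difference of LcPOU5F3 from mOct4 of -0.01 with a 95% interval from -0.35 to 0.33. The other BAF subunits, Smarcc1 and Arid1a, and Chd1 differed by -0.05, -0.46 and -0.25. In NuRD, the ATPase Chd4 differed by 0.07, the deacetylases Hdac1 and Hdac2 by -0.28 and -0.25, and Mbd3 by 0.18. Kat5, the acetyltransferase of TIP60, differed by 0.13 ± 0.13.

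In LcPOU5F1 clones, none of the 45 chromatin regulators was called against mOct4 with limma. In this comparison 0.0343% of all genes were called, 5 genes in all (0.0137% higher and 0.0206% lower). The smallest adjusted p of the 45 was 0.254, and 4 genes had an unadjusted p under 0.05 (Cbx8, Scmh1, Kdm2b and Kdm6b), where 15.6% of all genes did. The differences ran from -0.85 for Phf19 to 0.71 for Bmi1, with a median of -0.00 against 0.10 over all genes, and none reached 2-fold. Both LcPOU5F1 clones lay above the other 4 arrays for 8 genes, where 18.6% of all genes did so, and below them for 4 genes (Pcgf3, Cbx8, Phc3 and Kdm2b), where 7.51% did so; Cbx8 was dim in both groups compared, so its values have no order there. Both mOct4 clones lay above the other 4 arrays for 9 genes (13.3% of all genes) and below them for 5 (15.3% of all genes). For 36 of the 45 genes, the 95% interval of the difference lay within 1 log2 unit of 0, so a change of 2-fold or more lay outside their intervals. For Phf19 the interval ran from -2.14 to 0.45 and for Bmi1 from -0.22 to 1.65, and such genes could not be placed as precisely. Kdm2b was at 4.11 and 4.18 in mOct4 clones and 3.66 and 3.52 in LcPOU5F1 clones, and Kdm6b was lower in mOct4 clones by 0.53 ± 0.18; neither passed the test (adjusted p = 0.254 and 0.276).

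**Figure D3:**
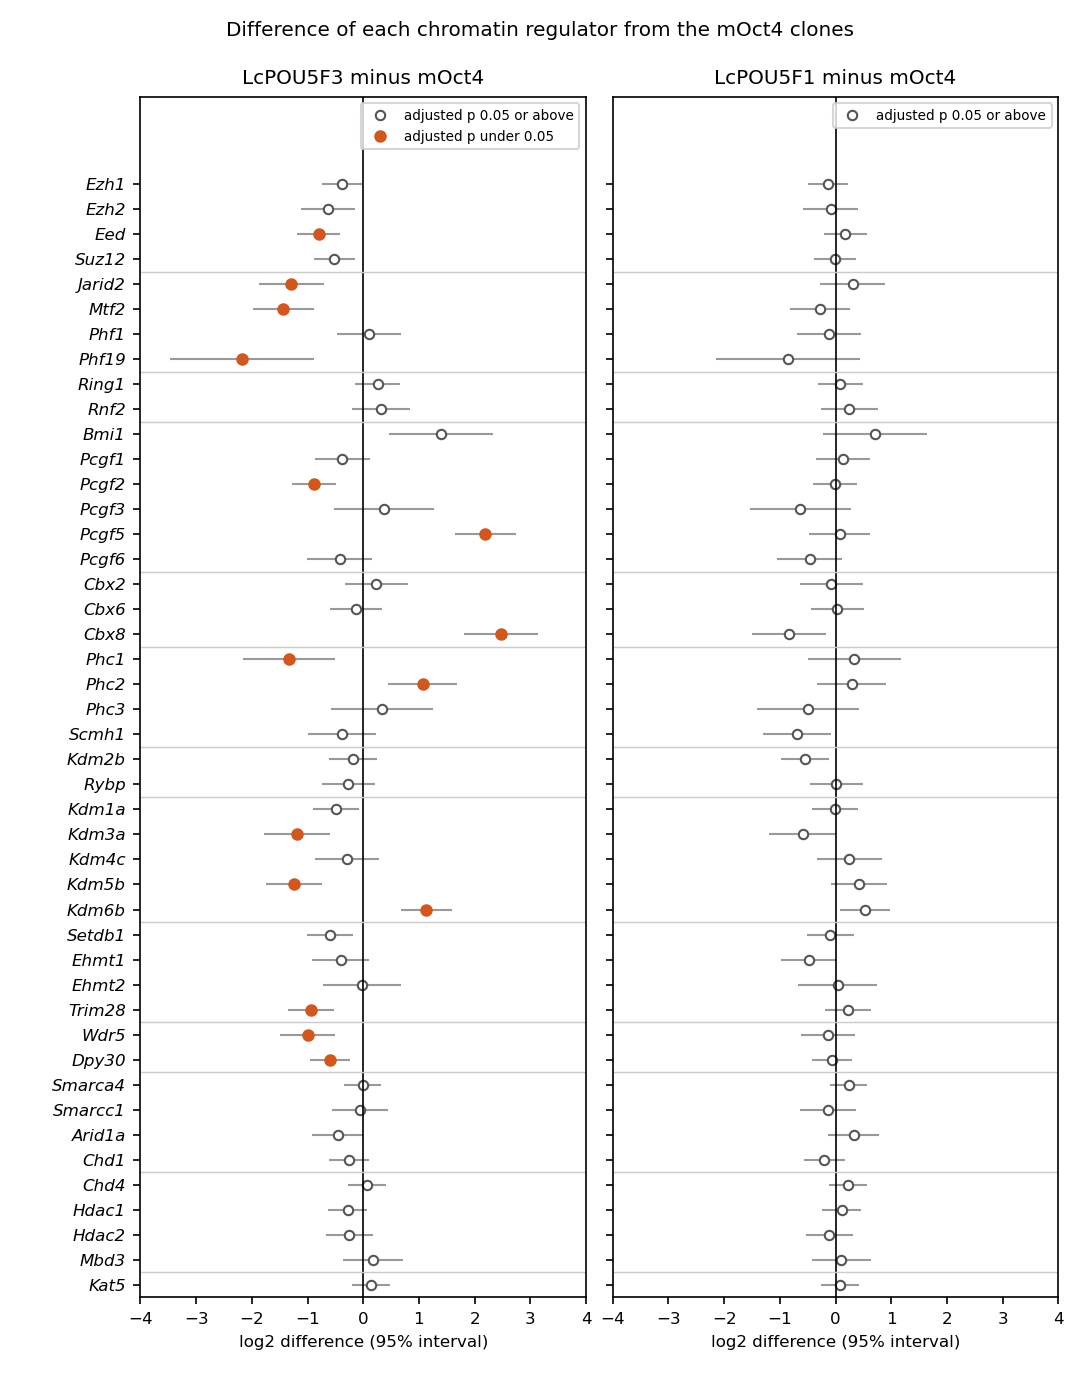
Log2 difference (points) with its 95% interval (lines) of each of the 45 chromatin regulators from the mOct4 clones, for LcPOU5F3 (left) and LcPOU5F1 (right), n = 2 clones per group; filled points have an adjusted p under 0.05. The left panel holds 15 filled points, 4 to the right of 0 and 11 to the left, and the right panel holds none; Cbx8 is drawn at its fitted difference although it was not well above background in mOct4 or LcPOU5F1 clones.

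Set against each other directly, the coelacanth paralogs differed in 11 of the 45 chromatin regulators (24.4%). That is near the share over all genes, so the count does not set these genes apart. In this comparison 20.6% of all genes were called, 10.6% higher and 9.99% lower in LcPOU5F1 clones. Eed, Jarid2, Mtf2, Pcgf2, Phc1, Kdm5b, Trim28, Wdr5 and Arid1a were higher in LcPOU5F1 than in LcPOU5F3 clones, and Pcgf5 and Cbx8 were lower. The median over the set was 0.16, against 0.21 over all genes, and 22 of the 45 had an unadjusted p under 0.05 (39.5% of all genes). Jarid2 was 3.03-fold higher in LcPOU5F1 clones (1.60 ± 0.23, adjusted p = 0.0155), Phc1 3.18-fold (1.67 ± 0.33, adjusted p = 0.0289) and Kdm5b 3.17-fold (1.67 ± 0.20, adjusted p = 0.0103). Mtf2 and Trim28 were 2.23-fold and 2.22-fold higher, and Eed 1.97-fold.

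Pcgf5 was 4.34-fold lower in LcPOU5F1 than in LcPOU5F3 clones (-2.12 ± 0.21, adjusted p = 0.00780), and Cbx8 at least 2.32-fold lower (adjusted p = 0.00552). Arid1a, a DNA-binding subunit of BAF, was called in this comparison only: it was at 3.75 and 3.75 in mOct4 clones, 3.88 and 4.27 in LcPOU5F1 clones, and 3.33 and 3.25 in LcPOU5F3 clones. Its difference between the paralogs was 0.78 ± 0.18 (adjusted p = 0.0413), and another probe gave 0.47. Phf19, Kdm3a, Phc2, Kdm6b and Dpy30, which were called for LcPOU5F3 against mOct4, differed here by 1.33, 0.59, -0.78, -0.61 and 0.53 and did not pass (adjusted p between 0.0545 and 0.127).

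This count varied with the arrays used. It was 2 without either mOct4 clone, 3 without LcPOU5F1 clone 4, 4 without LcPOU5F1 clone 5, 20 without LcPOU5F3 clone 1 and 6 without LcPOU5F3 clone 2. Pcgf5 kept its call in all of these fits. With arrays centred on the median in place of the 75th percentile, 0 genes were higher and 4 lower in LcPOU5F1 clones, with Pcgf5 and Cbx8 among the 4; that centring moved the median of all genes from 0.21 to -0.22 and that of the set from 0.16 to -0.26. For LcPOU5F3 against mOct4, the same centring gave 3 higher and 4 lower, and 6 of the 15 genes (Pcgf5, Cbx8, Jarid2, Mtf2, Phf19 and Phc1) kept their call.

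Across both comparisons that involve them, LcPOU5F3 clones were called above both other groups for Pcgf5 and for Cbx8, with its limit above (2 genes; 7.85% of all genes), and below both for 8 genes, Eed, Jarid2, Mtf2, Pcgf2, Phc1, Kdm5b, Trim28 and Wdr5 (6.66% of all genes). The LcPOU5F3 arrays are shared by these comparisons.

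The clones of a group agreed more closely for these genes in some groups than in others. The median gap between the 2 clones over the 45 genes came to 0.07 for mOct4 and 0.19 for either coelacanth group, where over all genes it came to 0.15 for mOct4, 0.21 for LcPOU5F1 and 0.33 for LcPOU5F3. The widest gaps were 0.55 for Bmi1 in mOct4, 1.49 for Phf19 in LcPOU5F1 and 1.04 for Pcgf3 in LcPOU5F3. Pcgf3 was at -1.96 in LcPOU5F3 clone 1 and -0.93 in clone 2, with the mOct4 clones at -1.73 and -1.91.

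For 15 of the 45 genes more than 1 probe was kept, which gave 19 further probes. Their difference of LcPOU5F3 from mOct4 had the sign of the probe used in 17 of 19, with a median gap of 0.14, and this held for all 4 further probes of called genes. For LcPOU5F1 against mOct4 and against LcPOU5F3 the sign was shared by 15 of 19 in each. The widest gap in the first comparison was that of a dim Ezh1 probe, which lay 0.62 below the probe used for LcPOU5F3 against mOct4. This probe passed the background test in both mOct4 clones, in neither LcPOU5F1 clone and in 1 LcPOU5F3 clone, so its differences are not precise.

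**Figure D4:**
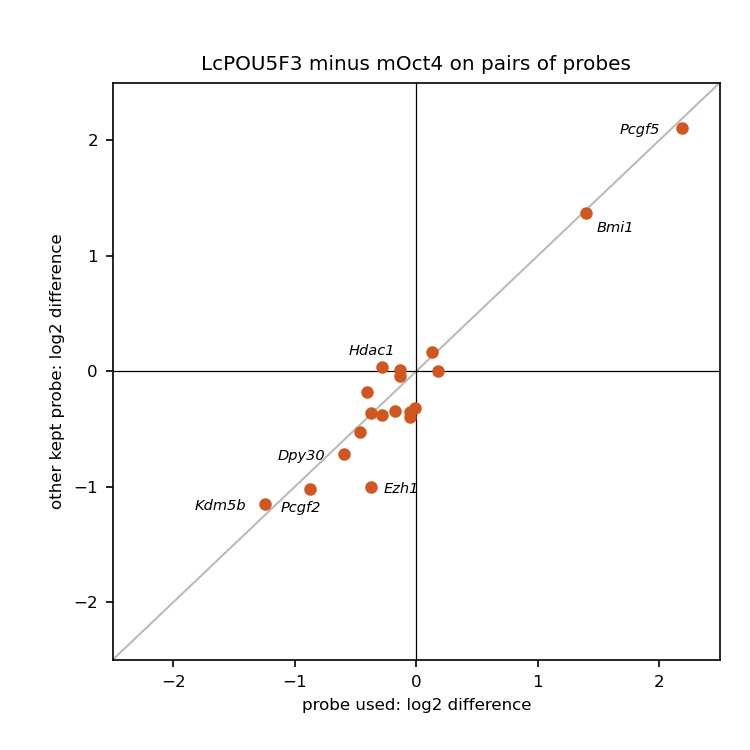
Log2 difference of LcPOU5F3 from mOct4 for each of 19 further kept probes (vertical axis) against that of the probe used for the same gene (horizontal axis); the grey line marks equal values. Points of Pcgf5, Bmi1, Kdm5b, Pcgf2 and Dpy30 lie near the line, and the Ezh1 probe lies 0.62 below it.

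Other genes of the same machinery were counted from a list of 144 chromatin genes outside the 46, of which 136 were tested. For LcPOU5F3 against mOct4, 9 rose and 19 fell (20.6% called, with a median of -0.10). Of all genes 23.5% were called there, with a median of -0.09, so the list as a whole was near the background. For LcPOU5F1 against mOct4 none was called, where 0.0343% of all genes were. In LcPOU5F1 against LcPOU5F3 clones 15 were higher and 8 lower (16.9% called, where 20.6% of all genes were). Among 14 other PRC1 subunits, 5 rose and 1 fell in LcPOU5F3 clones against mOct4 (42.9% called). These included Bcor and its relative Bcorl1, partners of PCGF1 in variant PRC1 (2.12 ± 0.47 and 1.95 ± 0.20, adjusted p = 0.0329 and 0.00732), and Yaf2, the relative of RYBP (1.42 ± 0.31, adjusted p = 0.0318). Bcor and Bcorl1 were also lower in LcPOU5F1 than in LcPOU5F3 clones, by -2.33 and -1.43. Of 4 other PRC2 subunits, 1 fell: Epop, an accessory subunit, by -1.50 ± 0.35 (adjusted p = 0.0387), and it was higher by 1.73 in LcPOU5F1 than in LcPOU5F3 clones.

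Among 7 other COMPASS subunits, Rbbp5 and Ash2l, which join WDR5 and DPY30 in the shared core, fell in LcPOU5F3 clones (-0.93 ± 0.14 and -0.82 ± 0.16, adjusted p = 0.0143 and 0.0239). Of 20 other lysine methyltransferases, 1 rose and 5 fell. The rise was that of Setd7, by 3.08 ± 0.20 (adjusted p = 0.00456). The falls included Prdm14, a PR-domain factor of pluripotent and germ cells (-2.94 ± 0.60, adjusted p = 0.0282), and Kmt5c, which trimethylates H4 lysine 20 (-0.88 ± 0.16, adjusted p = 0.0211). Among 12 other deacetylase genes 3 fell, with Rcor2, a partner of LSD1 in embryonic stem cells, at -3.11 ± 0.54 (adjusted p = 0.0200) and Hdac6, a mainly cytoplasmic deacetylase, at -1.55 ± 0.33 (adjusted p = 0.0316). The shares called were 28.6% for these COMPASS subunits, 30% for the methyltransferases and 25% for the deacetylase genes, where 23.5% of all genes were called.

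Of 18 other BAF subunits 2 fell, Phf10 (-1.25 ± 0.15, adjusted p = 0.00971) and Actl6a (-0.89 ± 0.16, adjusted p = 0.0218), and of 14 other CHD and ISWI remodellers and their relatives 1 rose and 3 fell, with Hells, a helicase that aids DNA methylation, at -0.98 ± 0.15 (adjusted p = 0.0157) and Baz1a at 1.86 ± 0.46 (adjusted p = 0.0441). Of 14 other TIP60-p400 subunits 2 fell, among them Brd8 (-1.30 ± 0.22, adjusted p = 0.0180). Phf2 was the called gene among 15 other lysine demethylases and rose by 1.19 ± 0.20 (adjusted p = 0.0195). Of 9 other NuRD subunits 1 rose. None of 6 H2A deubiquitinase subunits and none of 3 heterochromatin protein 1 genes was called. The shares called were 11.1% for BAF, 28.6% for the remodellers, 14.3% for TIP60-p400, 6.67% for the demethylases and 11.1% for NuRD. Over all genes the share was 23.5%.

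Genes that Polycomb is known to repress in embryonic stem cells were looked at beside the regulators. They were not all silent here: Cdkn2a was at 1.65 in mOct4 clones and well above background on both arrays. What their levels say of Polycomb activity was not tested. Of 29 such genes, 23 were tested, and the other 6 had no kept probe; 6 of the 29 also stand in the marker lists above. In LcPOU5F3 against mOct4 clones 7 rose and 2 fell (39.1% called, where 23.5% of all genes were, with a median of 0.28 against -0.09 over all genes). In LcPOU5F1 against mOct4 clones none was called, although the median of the 23 was 0.44 against 0.10 over all genes. Pax3, Irx3 and Nkx2-5 were well above background on no LcPOU5F1 array, and Sox17, Pax7, Tbx5 and Gsc entered through the mOct4 clones alone. The dimmest signal marked as well above background was -2.69 and -2.39 on the LcPOU5F1 arrays and -3.79 and -3.59 on the mOct4 arrays. How far dim probes shape this median was not tested. In LcPOU5F1 against LcPOU5F3 clones 2 of the 23 were higher and 6 lower (34.8% called, where 20.6% of all genes were). Their median was -0.11, against 0.21 over all genes. The cell cycle inhibitor Cdkn2a, the classical target of BMI1, rose by 2.54 ± 0.30 (adjusted p = 0.00977), and its neighbour Cdkn2b by 3.79 ± 0.31 (adjusted p = 0.00585). Pax3, a neural crest factor, rose by 3.17 ± 0.14 (adjusted p = 0.00251), and Irx3 by 3.43 ± 0.50 (adjusted p = 0.0138) from a level that was well above background on 1 of 2 mOct4 arrays; Irx3 passed the filter through the LcPOU5F3 clones alone, so it had to differ. Pax3 was at least 7.52-fold lower in LcPOU5F1 than in LcPOU5F3 clones, Irx3 at least 3.55-fold and Nkx2-5 at least 3.14-fold. Pax6, an eye and forebrain factor, went the other way and was higher in LcPOU5F1 than in LcPOU5F3 clones by 2.36 ± 0.33 (adjusted p = 0.0152).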

How the data were processed

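Total RNA of 6 clonal lines, 2 per group, was measured on 1-colour Agilent arrays of 55681 non-control probes. The authors extracted spot intensity with Agilent Feature Extraction 11.0.1.1 (protocol GE1_1100_Jul11), per the file headers, and the deposited processed intensity is linear and background-corrected. The deposited series matrix holds the same intensity values after rounding, with ratios to the unrounded values between 0.995 and 1.005 on each array. The array design names mm9, per the file headers, and the RefSeq table (GRCm38.p6) was used for names and start-site windows only; 27656 probes matched 1 symbol and 28025 matched none.

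Control spots and spots marked as outliers were left out, spots of a probe were averaged, and signals were log2 transformed and reduced by each array's 75th percentile. Between 43.4% and 57.8% of probes per array were well above background and no spot was saturated; precision is limited by having 6 arrays. Probes entered the test when 1 or more groups had both clones well above background, and the brightest probe stood for a gene. With R 4.3.3 and limma 3.58.1 (lmFit, eBayes), 1 model of the 3 groups over the 6 arrays left 3 residual degrees of freedom. P-values were adjusted by Benjamini-Hochberg over 14590 genes and called under 0.05. These steps were tested on simulated data. Where a probe is dim in both clones of a group, its fold is given as a bound ("at least").

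Members called in a comparison, and Ezh2, Eed, Suz12, Rnf2, Ring1, Kdm1a and Smarca4 whatever their values, were given per array. Of other lists, at most 4 called genes with the smallest p were named per comparison, and some are not reported here. Pou5f1, the markers and the per-array values of Kdm2b, Bmi1 and Pcgf3 were added after their values were seen. The 46 members and all lists were chosen with earlier results of these data known. Alternatives were normexp background correction (offset 50) on the median spot intensity, quantile normalization, centring on the median, other filters, the mean of all probes, an intensity trend, a variance weight per group, only the arrays compared, the series matrix, 1 slide, leaving out each array, and a replicate block; a 75th percentile over probes was added after seeing the data. Clone numbers shared by mOct4 and LcPOU5F3 did not pair the clones: same-numbered clones' deviations from their group means had r = -0.10.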

Additional observations from a re-analysis of the deposited data

How the results depend on the processing

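No called member changed direction under any alternative run. For LcPOU5F3 against mOct4, where 15 members were called, 7 were called with median centring, 5 with no filter on dim probes and 0 on slide 1 alone, and between 0 and 18 when 1 array was left out, with 0 without either mOct4 clone. A replicate block on the clone number, which does not pair the clones, called 0 members and 0 genes in all. For LcPOU5F1 against LcPOU5F3, with 11 called, the count was 4 with median centring, 5 with no filter, 19 with an intensity trend, 6 with a variance weight per group, 2 with only the 4 arrays compared and 2 on slide 1, and between 2 and 20 when 1 array was left out. For LcPOU5F1 against mOct4 it was 0 under every alternative, although median centring called 705 genes over the whole array and moved their median from 0.10 to -0.29, and between 0 and 529 genes were called with 1 array left out. Pcgf5 in LcPOU5F1 against LcPOU5F3 kept its call under all 18 alternatives run. The fits with fewer arrays have fewer residual degrees of freedom; other causes were not tested. A lone clone left in a group is assumed to vary like the other groups. With 2 clones per group, a change under 2-fold is often beyond the reach of the test, and a probe near background gives a bound only.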
